A study of Mus musculus with 11 samples.

Results

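Calcium release and reuptake in muscle was described through 10 genes of excitation-contraction coupling, chosen by symbol and mapped to the Ensembl identifiers of the count table, which holds 53465 genes. Each of the 10 matched 1 identifier and all 10 passed the filter on low counts. RNA came from quadriceps, a thigh muscle, in mice of the strain that the labels write C57L/6JRj. The mice were 18 months old when treatment began and were treated for 10 weeks. There were 5 libraries of mice given DMSO, the solvent, and 6 of mice given Myriocin, a fungal inhibitor of serine palmitoyltransferase, the first enzyme of sphingolipid synthesis. The sources used here give neither dose nor sex, and the labels name no young or untreated group. Nothing in the labels ties a library to a mouse of its own, so p-values measure the spread between these libraries, which may be technical.

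When a motor nerve fires, the action potential travels down the transverse tubules and moves the voltage sensor of the tubule membrane, which opens the calcium release channel of the facing sarcoplasmic reticulum. The calcium that leaves the store starts contraction, is bound for a time by parvalbumin in fast fibres, and is pumped back by the sarcoplasmic reticulum calcium ATPase, where calsequestrin holds it for the next release. Fast and slow fibres use different versions of the pump and of calsequestrin, and sarcolipin and phospholamban are small membrane proteins that lower the pump's activity.

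The genes lie as follows on build GRCm38. Cacna1s (ENSMUSG00000026407), the voltage-sensing subunit of the tubule calcium channel, is on chromosome 1 from 136052750 to 136119822. Jph1 (ENSMUSG00000042686), junctophilin, which ties the tubule to the store membrane, is on chromosome 1 from 16964560 to 17097889. Ryr1 (ENSMUSG00000030592), the release channel of skeletal muscle, is on chromosome 7 from 29003344 to 29125179. Casq1 (ENSMUSG00000007122) and Casq2 (ENSMUSG00000027861), the calsequestrins of fast fibres and of heart and slow fibres, are on chromosome 1 from 172209894 to 172219868 and on chromosome 3 from 102086415 to 102146514. Pvalb (ENSMUSG00000005716), parvalbumin, is on chromosome 15 from 78191114 to 78206400. Atp2a1 (ENSMUSG00000030730), the pump of fast fibres, is on chromosome 7 from 126445858 to 126463108, and Atp2a2 (ENSMUSG00000029467), the pump of slow fibres, heart and many other tissues, is on chromosome 5 from 122453513 to 122502225. Sln (ENSMUSG00000042045), sarcolipin, is on chromosome 9 from 53850164 to 53854560, and Pln (ENSMUSG00000038583), phospholamban, is on chromosome 10 from 53337667 to 53345987.

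For 3 of these genes a large part of the annotated exons also lies in exons of a gene on the opposite strand. The shared part was 64.7% of the exon bases of Pln, with Cep85l and a predicted gene, 21.9% of those of Atp2a1, with Rabep2, and 20% of those of Cacna1s, with a predicted gene. No source used here says whether the counting used strand. Reads of these stretches may have been set aside as ambiguous or assigned to either gene, which leaves the levels of Pln above all uncertain.

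Promoter sequence is shown for the calsequestrin pair, whose levels lay far apart, and for Pvalb, the most abundant member per kb of exon. RefSeq tables of GRCm38.p6 held promoters of 7 of the 10 members, those of Cacna1s, Ryr1, Casq1, Casq2, Pvalb, Atp2a1 and Pln. The 250 bases before the start site are printed on the gene's strand, with matches to the E-box, CANNTG, and to the MEF2 consensus in capitals, the binding motifs of the myogenic basic helix-loop-helix factors and of MEF2. Both motifs were searched on both strands, each motif being its own reverse complement, and the matches did not overlap.
Casq1 (chr1:172219896-172220145, minus strand): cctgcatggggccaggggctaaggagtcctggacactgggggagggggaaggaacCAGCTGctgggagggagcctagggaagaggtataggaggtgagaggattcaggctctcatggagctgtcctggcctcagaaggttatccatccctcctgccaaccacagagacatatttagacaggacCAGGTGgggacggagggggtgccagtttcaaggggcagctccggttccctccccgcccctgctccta
Casq2 (chr3:102086165-102086414, plus strand): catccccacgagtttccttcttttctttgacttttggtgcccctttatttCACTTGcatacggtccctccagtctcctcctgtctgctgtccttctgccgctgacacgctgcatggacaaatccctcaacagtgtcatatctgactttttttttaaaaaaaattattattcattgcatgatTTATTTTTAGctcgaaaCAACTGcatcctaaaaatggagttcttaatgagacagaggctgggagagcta
Pvalb (chr15:78206401-78206650, minus strand): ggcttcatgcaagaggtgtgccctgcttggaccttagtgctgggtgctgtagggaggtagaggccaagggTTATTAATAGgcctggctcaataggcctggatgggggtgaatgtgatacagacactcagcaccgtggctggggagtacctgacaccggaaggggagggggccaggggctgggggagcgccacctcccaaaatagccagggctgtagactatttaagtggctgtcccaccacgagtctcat
The window of Casq1 held 2 E-boxes, which began 195 and 67 bases before the start site, and no MEF2 match. The window of Casq2 held 2 E-boxes, 200 and 52 bases before the start site, and 1 MEF2 match at 69 bases. Pvalb had 2 windows in the table, of different start sites. The window printed held no E-box and 1 MEF2 match, 180 bases before the start site, and the other (chr15:78204238-78204487) held 1 E-box, 111 bases before its start site, and no MEF2 match. Of 32841 promoter windows of this length, 66.2% held an E-box, 31.8% held at least 2 and 2.92% held a MEF2 match. These matches describe the letters of the windows, and binding was not measured.

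The members spanned more than 4 orders of magnitude in level, and the fast versions were far above the slow ones. Levels between genes were compared as RPKM, the CPM (count of a gene in 1e6 gene reads, after TMM scaling) divided by kb of exon. Pvalb stood highest, from 8617 to 14929 RPKM over the 11 libraries, and Atp2a1 followed at 7490 to 10283, so that the ranges of these genes overlapped. Casq1 lay at 933 to 1472 RPKM, apart from its neighbours on both sides. Ryr1 (191 to 279.8) and Cacna1s (149 to 223) overlapped, and Ryr1 would stand at a mean of 330.1 in place of 232 RPKM with the length of its longest transcript, since its annotated exons sum to 21838 bases over all transcripts. Jph1 lay at 64.4 to 87.6 RPKM, below those genes and above the rest. Atp2a2 (8.98 to 36.3), Casq2 (3.01 to 11.2) and Sln (2.08 to 9.44) overlapped one another, and Pln was lowest, at 0.223 to 1.05 RPKM.

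**Figure D1:**
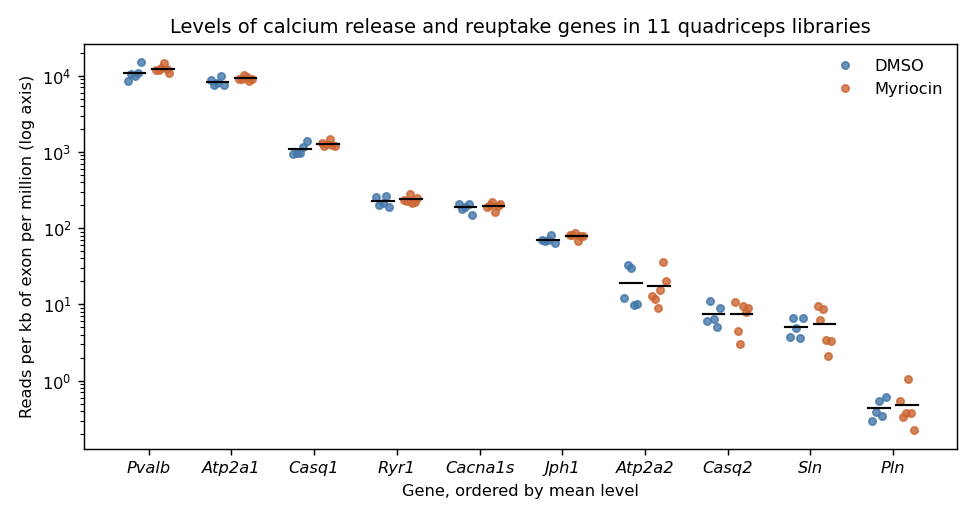
Level of each gene in RPKM (log axis), with a point for each of the 5 DMSO and 6 myriocin libraries and a line at the group mean. Pvalb and Atp2a1 lie at 7490 RPKM or more, Casq1 at 933 to 1472 and the slow versions and pump inhibitors at 36.3 or less, with overlapping groups for every gene.

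By share of reads the fast pump and the buffer were among the most abundant genes. Atp2a1 alone took 2.54% to 3.58% of all gene reads of a library and ranked 3 among 14117 tested genes, and Pvalb took 0.912% to 1.51% and ranked 11. Ryr1 took 0.406% to 0.613%. At the other end Pln ranked 12008, with a mean of 1.27 CPM. These ranks are of CPM, which is not corrected for length.

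The fast fibre character of the tissue was checked against markers. Myh4, the myosin heavy chain of the fastest fibres, had a mean of 61846 ± 5804 CPM in the DMSO libraries (SD, n = 5). In the myriocin libraries its mean was 71118 ± 3148 CPM (SD, n = 6), and all 6 lay above the DMSO mean. Myh4 had a log2 fold change of 0.20 (interval 0.02 to 0.38), with an unadjusted p of 0.0305 and an adjusted p of 0.936 in edgeR. Of the 8 fast fibre markers, 4 had positive and 4 had negative log2 fold changes, the lowest that of Myh2, -0.56 (interval -1.34 to 0.22). The 8 fast fibre markers summed to 110644 to 123443 CPM with DMSO and 122248 to 140945 CPM with myriocin. Myh4 made up the largest part of these sums. Tnnc2, 1 of the 8, was near 0 at 0.451 to 1.82 CPM, and whether the counting lost its reads was not tested. The 7 slow fibre markers summed to 35.1 to 514.5 CPM with DMSO and 19.9 to 529.9 CPM with myriocin. The 5 heart markers summed to 8.98 to 40.1 CPM with DMSO and 7.68 to 34.4 CPM with myriocin. Of these, Myl7 had 0 counts in each library, and Nppa and Nppb had at most 0.0878 CPM. Myl4 had 4.90 to 34.8 CPM and Myh6 had 2.09 to 5.58 CPM over the libraries. The 5 smooth muscle markers summed to 171 to 233 and 160 to 224 CPM, with Tagln near 0 at means of 0.16 and 0.26 CPM.

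Some libraries stood apart. Liver transcripts were highest in DMSO replicates 4 and 5 and Myriocin replicate 4, with a 5-gene sum of 93.8 to 114 CPM against 5.04 to 26.7 CPM elsewhere, and 4 neutrophil genes summed to 643.7 CPM in DMSO replicate 2 and at most 91.3 CPM elsewhere. DMSO replicate 5 and Myriocin replicate 4 also differed in the lengths of the transcripts recovered. Across 12428 genes, the deviation of a gene in a library from its mean over all libraries had a Spearman rho with exon length of -0.40 in both, against -0.16 to 0.32 in the other 9 libraries. The reads assigned to genes summed to between 22241131 and 23163721 a library, and 3 counts correspond to 0.130 to 0.135 CPM. All intervals cover counting error and the spread between these libraries. The floor of 3 counts is a fixed count turned into CPM and measures neither.

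Not one of the 10 genes differed between the groups at the adjusted threshold. By edgeR's quasi-likelihood test 0 of 10 had an adjusted p under 0.05, where 0% of all 14117 tested genes did (DESeq2 called 0 of the 10 and 6 genes in all, limma-voom 0 and 0). At an unadjusted p under 0.05 there was 1 member, Casq1, and 4.68% of all tested genes (2.33% higher and 2.34% lower with myriocin). DESeq2 gave 2 members and 659 of all 14117 tested genes at that threshold, and limma-voom gave 1 member and 660 of all 14117. Of the members 8 had positive log2 fold changes, myriocin minus DMSO, with a median of 0.13, where 46.3% of all tested genes were positive, with a median of -0.01. For all 10 members the ranges of the groups overlapped, and the groups did not overlap for 0.361% of all tested genes.

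**Figure D2:**
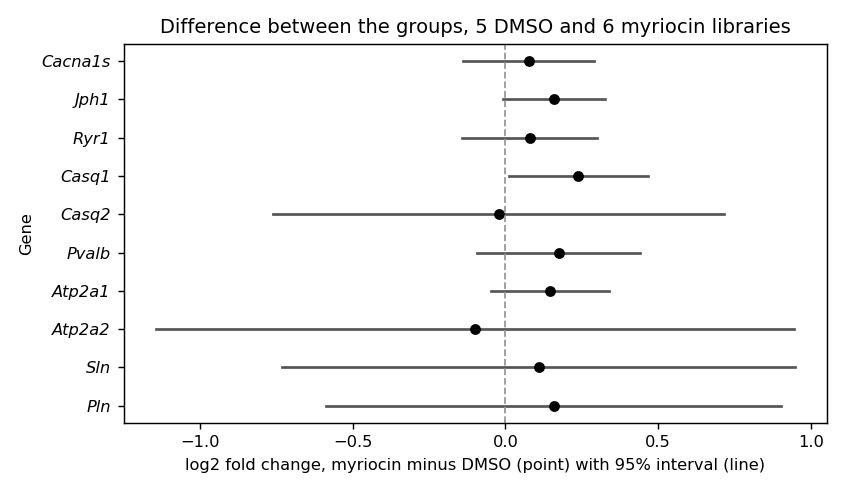
Log2 fold change of each gene, myriocin minus DMSO (point), with its 95% interval from edgeR (line), over 5 DMSO and 6 myriocin libraries. The interval of Casq1 alone leaves out 0, before any adjustment, and those of Casq2, Atp2a2, Sln and Pln are the widest.

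Of the release machinery, Ryr1, the release channel, had 5551, 4435, 4607, 5822 and 4172 CPM in DMSO replicates 1 to 5, and 5181, 4999, 6111, 4672, 4804 and 5409 CPM in Myriocin replicates 1 to 6. Every myriocin library except replicate 3 lay within the DMSO range. Its log2 fold change was 0.08 with a 95% interval from -0.14 to 0.30, and edgeR's adjusted p was 0.948. With DMSO replicates 2 and 5 and Myriocin replicate 4 left out, the log2 fold change was -0.0079. These libraries were taken as farthest out on principal components, which are not shown here, and were chosen after seeing the data. With 1 library left out the log2 fold change of Ryr1 was lowest, 0.024, without DMSO replicate 5 and highest, 0.15, without DMSO replicate 4.

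Cacna1s, the voltage sensor, had 1353, 1177, 1239, 1370 and 977 CPM with DMSO and 1248, 1314, 1459, 1054, 1297 and 1365 CPM with myriocin. The lowest library of each group, DMSO replicate 5 and Myriocin replicate 4, was also the lowest of its group for Ryr1 and for Jph1. Cacna1s had a log2 fold change of 0.08 (interval -0.14 to 0.29, adjusted p = 0.948 in edgeR). Leaving out DMSO replicate 5 or Myriocin replicate 3 brought it to 0.0029 or 0.037, and it was 0.12, 0.12 and 0.13 without DMSO replicate 1, DMSO replicate 4 and Myriocin replicate 4.

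Jph1, the junctophilin of skeletal muscle, had 347, 344, 351, 409 and 322 CPM with DMSO and 401, 408, 438, 339, 392 and 396 CPM with myriocin. Myriocin replicate 4 lay among the DMSO libraries, DMSO replicate 4 lay among the myriocin libraries, and the others were parted. This gave a log2 fold change of 0.16 (SE 0.08, interval -0.0091 to 0.33) with an unadjusted p of 0.062 and an adjusted p of 0.936 in edgeR. Leaving out DMSO replicate 4 lowered the unadjusted p of Jph1 to 0.0142, and leaving out Myriocin replicate 4 lowered it to 0.0146. Each of these libraries lay among those of the other group, so the lower p follows in part from the choice. Every other single omission raised the unadjusted p, to between 0.0752 (Myriocin replicate 5) and 0.148 (DMSO replicate 5). Omitting DMSO replicates 4 and 5 and Myriocin replicate 4 together, a set chosen after seeing the data, gave 0.00302. The adjusted p was 0.42 or above in all of these fits.

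The calsequestrins hold calcium in the store. Casq1, the fast version, had 1819, 1862, 1900, 2296 and 2711 CPM in DMSO replicates 1 to 5 and 2556, 2341, 2441, 2872, 2417 and 2360 CPM in Myriocin replicates 1 to 6. All 6 myriocin libraries lay above the DMSO mean of 2118 ± 382.5 CPM (SD, n = 5), and 5 of them lay below DMSO replicate 5. Casq1 had a log2 fold change of 0.24 (SE 0.11, interval 0.01 to 0.47), with an unadjusted p of 0.0415 and an adjusted p of 0.936 in edgeR. The unadjusted p was above 0.05 without any one of DMSO replicates 1, 2 and 3 and Myriocin replicates 1, 3, 4 and 5 (lowest 0.0531, highest 0.11), and with upper-quartile scaling. Without DMSO replicate 5 the log2 fold change of Casq1 was 0.34 (unadjusted p = 0.00171, adjusted p = 0.999). Without the 3 libraries with most liver transcripts, DMSO replicates 4 and 5 and Myriocin replicate 4, the log2 fold change was 0.38 (unadjusted p = 7.61e-05, adjusted p = 0.435). Without the 3 libraries farthest out it was 0.27 (unadjusted p = 0.00491, adjusted p = 0.507). Both sets were chosen after seeing the data and leave out the highest library of each group, DMSO replicate 5 and Myriocin replicate 4. The liver set also leaves out DMSO replicate 4, the next highest with DMSO. Every DMSO library left then lay below every myriocin library left, so the small unadjusted p follows in part from the choice of libraries. The part of liver transcripts and of transcript length in the Casq1 values was not tested.

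Casq2, the version of heart and slow fibres, had 16.8, 30.6, 17.8, 13.7 and 24.3 CPM with DMSO and 29.3, 12.2, 8.24, 26.0, 21.7 and 24.6 CPM with myriocin. Both groups held libraries under 14 and above 29 CPM, and Myriocin replicate 3 was the lowest. Casq2 had a log2 fold change of -0.02 with an interval from -0.76 to 0.72 (adjusted p = 0.997 in edgeR), and its sign turned without any one of DMSO replicates 2 and 5 and Myriocin replicates 2 and 3.

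Pvalb, the soluble calcium buffer of fast fibres, had 8970, 10904, 10368, 11240 and 15541 CPM with DMSO and 12479, 12466, 12939, 15296, 12621 and 11386 CPM with myriocin. DMSO replicate 5 was the highest of all and DMSO replicate 1 the lowest, so that the DMSO libraries enclosed every myriocin library. Pvalb had a log2 fold change of 0.17 (interval -0.09 to 0.44, adjusted p = 0.936 in edgeR). Without DMSO replicate 5 the log2 fold change was 0.31 (unadjusted p = 0.0061, adjusted p = 0.999), and without DMSO replicate 1 it was 0.099. It was 0.30 (adjusted p = 0.659) without the 3 libraries with most liver transcripts and 0.28 (adjusted p = 0.53) without the 3 farthest out. Both sets were chosen after seeing the data and leave out the highest library of each group, DMSO replicate 5 and Myriocin replicate 4.

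Atp2a1, the fast pump, had 30685, 26262, 28248, 33985 and 26044 CPM with DMSO and 31538, 31151, 35755, 33286, 29676 and 31553 CPM with myriocin, a coefficient of variation of 11.5% and 6.54%. All 6 myriocin libraries lay above the DMSO mean of 29045 CPM, while DMSO replicate 4 lay above 5 of them. Atp2a1 had a log2 fold change of 0.15 (SE 0.09, interval -0.05 to 0.34, adjusted p = 0.936 in edgeR), and 0.043 without the 3 libraries farthest out.

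Atp2a2, the slow pump, varied widely between libraries of the same group. It had 73.2, 198, 181, 60.2 and 62.1 CPM in DMSO replicates 1 to 5 and 77.8, 71.3, 54.6, 95.2, 221 and 123 CPM in Myriocin replicates 1 to 6, a coefficient of variation of 59.6% and 56.3%. DMSO replicates 2 and 3 and Myriocin replicate 5 stood above the rest, the groups overlapped, and the highest library was 4.04 times the lowest. Its log2 fold change was -0.10 with an interval from -1.15 to 0.94 (adjusted p = 0.983 in edgeR). Its sign turned without any one of DMSO replicates 2 and 3 and Myriocin replicate 3. In bulk tissue, fewer cells of a type and less RNA per cell cannot be told apart.

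Within the groups the slow pump followed the slow myosin. Myh7, the myosin heavy chain of slow fibres, had 4.84, 111, 96.5, 1.08 and 4.29 CPM with DMSO and 9.35, 8.27, 1.88, 56.3, 145 and 42.6 CPM with myriocin. After subtraction of the group means, log2 CPM of Atp2a2 and Myh7 had Pearson's r of 0.96 over the 11 libraries (exact permutation within groups, 2-sided, p = 0.000185, adjusted over 55 relations 0.0102) and Spearman's rho of 0.97 (exact p = 8.1e-05, adjusted 0.00446). Without DMSO replicate 2 and Myriocin replicate 5, the libraries farthest from the median of Atp2a2, r was 0.95. Within the 6 libraries with Myh7 under 10 CPM, chosen after seeing the data, r was 0.87. In a fit with the log2 Myh7 level as a covariate, also added after seeing the data, the log2 fold change of Atp2a2 was -0.22 with a narrower interval, from -0.49 to 0.04 (SE 0.12 against 0.47 without it; adjusted p = 0.896 in edgeR). Myh7 itself was measured after treatment in the same libraries.

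**Figure D3:**
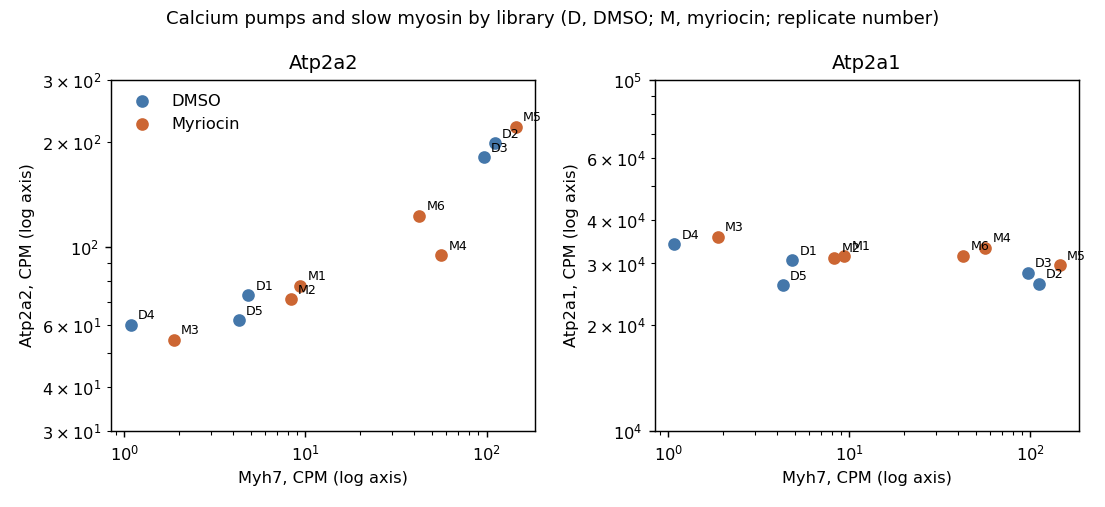
CPM of the slow pump Atp2a2 (left) and the fast pump Atp2a1 (right) against CPM of the slow myosin Myh7, log axes, with a point for each library marked by group and replicate. Atp2a2 runs from 54.6 to 221 CPM, higher where Myh7 is higher, while Atp2a1 stays between 26044 and 35755 CPM.

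The other members had no such relation that passed the adjustment. Ryr1 had r of -0.645 with Myh7 (exact permutation within groups, p = 0.0675, adjusted 0.186, rho -0.56), and -0.85 without DMSO replicate 5 and Myriocin replicate 3. For Jph1 r was -0.53 (exact permutation p = 0.124, adjusted 0.274, rho -0.52), and -0.78 without DMSO replicate 5 and Myriocin replicate 4. Casq2 had r of 0.62 with Myh7 (exact permutation within groups, p = 0.048, adjusted 0.159; rho 0.60, adjusted p = 0.218; r 0.36 without Myriocin replicates 2 and 3). Atp2a1 had r of -0.63 (exact p = 0.0676, adjusted 0.186; rho -0.52, exact p = 0.171; r -0.80 without DMSO replicates 2 and 5). Sln, at -0.40 (exact p = 0.213; rho -0.25), and Pln, at 0.18 (exact p = 0.6; rho 0.24), did not pass either.

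The pump inhibitors among the members, Sln and Pln, were both scarce. Mrln, one of the further genes listed as pump regulators, stood higher, with means of 46.05 CPM with DMSO and 41.68 CPM with myriocin. Sln, sarcolipin, had 4.93, 8.80, 6.55, 4.85 and 8.63 CPM with DMSO and 12.4, 8.27, 11.4, 4.55, 2.74 and 4.30 CPM with myriocin. The myriocin group held the highest libraries, replicates 1 and 3, and the lowest, replicate 5. Sln had a log2 fold change of 0.11 with an interval from -0.73 to 0.95 (adjusted p = 0.982 in edgeR), and its sign turned without Myriocin replicate 1 or 3 and with limma-voom.

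Pln, phospholamban, had 0.821, 1.07, 1.48, 0.952 and 1.66 CPM with DMSO and 1.5, 0.919, 1.05, 2.89, 1.04 and 0.614 CPM with myriocin. Myriocin replicate 4 stood above all others, and 4 of 6 myriocin libraries lay below the DMSO mean of 1.19 CPM. Pln had a log2 fold change of 0.16 with an interval from -0.59 to 0.90 (adjusted p = 0.967 in edgeR), and without Myriocin replicate 4 it was -0.22.

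Fast and slow versions were then compared within each library, where the scaling cancels. The Atp2a1 to Atp2a2 ratio, per kb of exon, was 733, 232, 273, 986 and 733 in DMSO replicates 1 to 5 and 709, 764, 1145, 612, 235 and 448 in Myriocin replicates 1 to 6. The lowest were DMSO replicates 2 and 3 and Myriocin replicate 5, and the ranges of the groups overlapped over nearly their whole width. The mean log2 ratio was higher with myriocin by 0.20 (95% interval from inverting the exact permutation test, -1.01 to 1.42), with a 2-sided exact permutation p of 0.699, 0.877 adjusted over the 3 pairs. The smallest p this design can give is 0.00216. Leaving out DMSO replicate 2 or 3 turned the difference to -0.078 or -0.019, and it was 0.69 without the 3 libraries with most liver transcripts.

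The Casq1 to Casq2 ratio was 152, 85.3, 150, 235 and 156 with DMSO and 122, 269, 414, 155, 156 and 135 with myriocin. Myriocin replicate 3 was the highest and DMSO replicate 2 the lowest, and the medians, 152 and 155, lay close together. The mean log2 ratio was higher by 0.35 with myriocin (interval -0.47 to 1.21, exact permutation p = 0.405, adjusted 0.877). Without the 3 libraries with most liver transcripts the difference was 0.65, and without Myriocin replicate 3 it was 0.12.

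The Sln to Pln ratio was 12.3, 17, 9.19, 10.5 and 10.8 with DMSO and 17.1, 18.5, 22.3, 3.28, 5.43 and 14.2 with myriocin. The myriocin libraries spread over a wider range, with an SD of 1.12 against 0.34 log2 units, and that difference in spread was not tested. The mean log2 ratio was lower by 0.08 (difference -0.08, interval -1.31 to 1.002, exact permutation p = 0.877, adjusted 0.877), and the difference was 0.27 without Myriocin replicate 4, 0.12 without Myriocin replicate 5 and 0.053 without DMSO replicate 2.

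**Figure D4:**
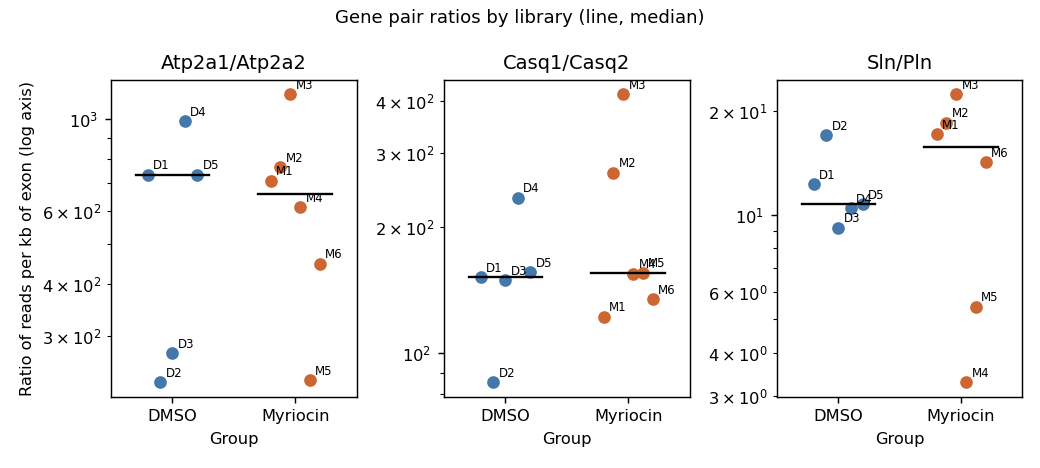
Ratio of reads per kb of exon for the 3 gene pairs in each library (log axis), marked by group and replicate, with a line at the group median. The groups overlap for each pair, and the pump ratio falls to 232, 273 and 235 in DMSO replicates 2 and 3 and Myriocin replicate 5.

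Some members varied together from library to library. Of 45 member pairs, 6 were positively and 1 negatively correlated within groups at an adjusted p under 0.05. The share of pairs of other genes that would pass was not computed, so the count cannot be read as particular to these members. Ryr1 and Cacna1s had r of 0.85 (exact permutation within groups, p = 0.00237, adjusted 0.0302) and rho of 0.94 (adjusted p = 0.0105), and r was 0.92 without DMSO replicate 5 and Myriocin replicate 4. Ryr1 and Jph1 had r of 0.79 (adjusted exact p = 0.0302; rho 0.83, adjusted 0.0223; r 0.74 without the same libraries). Casq1 and Pvalb had r of 0.91 (exact p = 0.000984, adjusted 0.0271; rho 0.89, adjusted 0.0223), and r was 0.92 without DMSO replicates 1 and 2.

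The remaining pairs passed by Pearson's r and not by Spearman's rho. Cacna1s and Jph1 had r of 0.85 and 0.67 without DMSO replicate 5 and Myriocin replicate 4 (adjusted exact p = 0.0302; rho 0.78, adjusted 0.0602). Ryr1 and Atp2a1 had r of 0.86 and 0.77 without DMSO replicate 5 and Myriocin replicate 3 (adjusted exact p = 0.0302; rho 0.80, adjusted 0.115). Pvalb and Pln had r of 0.68 and 0.81 without DMSO replicates 1 and 5 (adjusted exact p = 0.0302; rho 0.64, adjusted 0.218). Cacna1s and Pln were opposed, with r of -0.79 and -0.51 without DMSO replicate 5 and Myriocin replicate 4 (adjusted exact p = 0.0302; rho -0.72, adjusted 0.163).

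DMSO replicate 5 and Myriocin replicate 4, which recovered more of the short transcripts, were the highest of their groups for Casq1 and Pvalb and the lowest of their groups for Ryr1, Cacna1s and Jph1. The annotated exons of Pvalb and Casq1 sum to 1041 and 1951 bases, and those of Jph1, Cacna1s and Ryr1 to 4998, 6550 and 21838. The other members did not all follow length. Pln (2759 bases) was the highest of its group in both libraries. Atp2a1 (3477 bases) was the lowest of its group in DMSO replicate 5, while in Myriocin replicate 4 it was below replicate 3 alone. Sln (1318 bases), Casq2 (2736) and Atp2a2 (6081) were at neither end of their groups in these libraries. The opposed values of Cacna1s and Pvalb had r of -0.81 over the 11 libraries (exact p = 0.0131, adjusted 0.08; rho -0.35, exact p = 0.33) and -0.17 without this pair of libraries. The part of transcript length in the correlations was not tested.

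**Figure D5:**
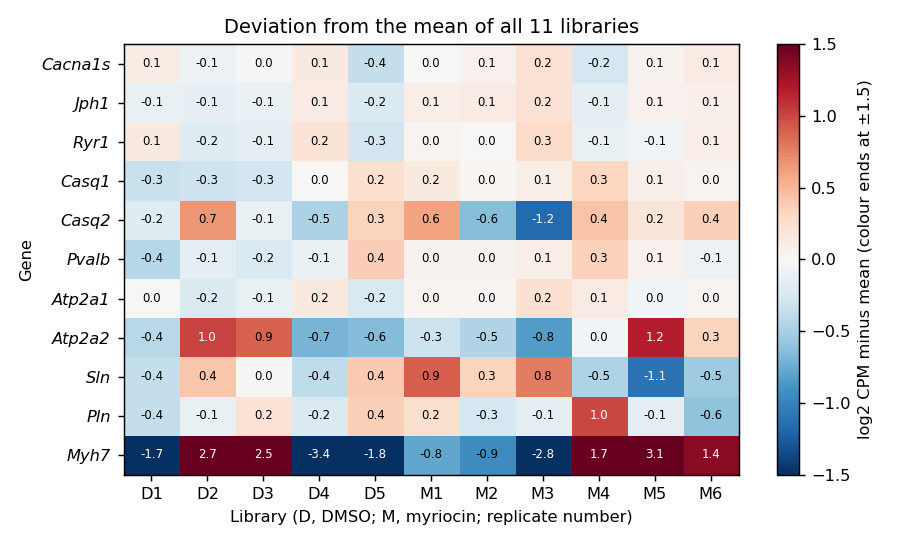
Deviation of log2 CPM from the mean of all 11 libraries for the 10 genes and the slow myosin Myh7, by library, with the value printed in each cell and colours ending at 1.5 log2 units. Atp2a2 follows Myh7 across libraries, and DMSO replicate 5 and Myriocin replicate 4 are high for Casq1 and Pvalb and low for Cacna1s, Jph1 and Ryr1.

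The genes most alike were sought among 7129 tested genes with a mean of at least 10 CPM, by Pearson's r of group-centred log2 CPM over the 11 libraries, as a description. For Atp2a2 they were Tpm3 (r = 0.96), a tropomyosin gene, Myh7 (0.96) and Tnnc1 (0.94), troponin C of slow fibres and heart. For Atp2a1 they were Gigyf1 (0.96), Llgl1 (0.95) and Dop1b (0.94). For Sln they were Npm1 (0.94), Eif2a (0.86) and Matr3 (0.85).

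The rest of the calcium handling genes showed as little difference. Of 41 further genes listed, 39 were tested, and Fkbp1b and Strit1, a small peptide that raises pump activity, had too few counts. In edgeR 0 of 39 passed the adjusted threshold, and 2 had an unadjusted p under 0.05, against 4.68% of all tested genes. DESeq2 and limma-voom also called 0. The median log2 fold change was 0.04 (lowest -0.20, highest 0.90), and 27 were positive. Of all tested genes 46.3% were positive, with a median of -0.01. Genes vary together within libraries, so these signs, here and by group below, are not independent and were not tested.

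Around the voltage sensor and triad, 6 of 7 genes were positive and 0 passed. Cacna2d1, the auxiliary subunit of the tubule channel, had 277 ± 27.2 and 320 ± 49.1 CPM (SD, n = 5 and 6; log2 fold change 0.21, interval -0.03 to 0.44). Jph2, the junctophilin shared with heart, had 1239 ± 174 and 1333 ± 148 CPM (0.11, interval -0.11 to 0.32).

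Among 15 tested genes of the release complex and the store lumen, 9 were positive and 0 passed. The largest difference in the list was that of Ryr3, a release channel of low abundance in adult limb muscle, at 0.443 ± 0.139 and 0.828 ± 0.25 CPM (SD, n = 5 and 6). Its log2 fold change was 0.90 (interval 0.31 to 1.496, unadjusted p = 0.00582, adjusted p = 0.936 in edgeR), all 6 myriocin libraries lay above the DMSO mean, and the groups overlapped. Sypl2, a membrane protein of the triad, had 458 ± 64.7 and 527 ± 39.4 CPM (0.20, interval 0.0061 to 0.40, unadjusted p = 0.0441, adjusted p = 0.936 in edgeR).

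Of the pump regulators, 4 of 5 tested were positive and 0 passed. The calcium and calmodulin dependent kinase subunits Camk2a and Camk2b had log2 fold changes of 0.14 (interval -0.06 to 0.34) and 0.08 (interval -0.06 to 0.22). In store-operated entry, the calcium sensors Stim2 and Stim1 of the store membrane had 0.10 (interval -0.05 to 0.24) and 0.05 (interval -0.12 to 0.22), and 3 of 3 genes were positive.

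Mitochondrial uptake was the group with more negative than positive values, 3 of 5. Smdt1, a subunit of the mitochondrial calcium uniporter, had a log2 fold change of -0.13 (interval -0.36 to 0.09), and Mcub, a pore subunit that limits uptake, had -0.20 (interval -0.70 to 0.30). For export across the plasma membrane, the exchanger Slc8a1 had 0.26 (interval -0.28 to 0.79) and the pump Atp2b1 had 0.09 (interval -0.09 to 0.27). None of these genes passed edgeR's test, their smallest adjusted p being 0.936.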

How the data were processed

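The deposited values are whole-number counts of reads by gene, not normalized, in 11 libraries. The submitters' processing notes name STAR 2.5.2b, HTSeq 0.6.0 and GRCm38; no source used here gives the strand setting or the annotation release. Total RNA was extracted with a Direct-zol kit, and DNBseq was used for sequencing, per the labels' protocols. The 5 HTSeq summary lines, 24.7% to 28.2% of reads, were left out of the library sizes and all tests. Of the 53465 genes, 53274 matched GENCODE M21, which gave symbols, coordinates and exon lengths; Strit1 was matched through a RefSeq synonym. Libraries of a group differed beyond sampling noise in each pairing (chi-square per degree of freedom of 8.87 or more).

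The main test was edgeR 4.0.16 under R 4.3.3 (filterByExpr with minimum count 10 and total 15, TMM scaling, robust quasi-likelihood test, Benjamini-Hochberg over 14117 genes, threshold 0.05). Alternatives used DESeq2 1.42.0 and limma 3.58.1. The SE is the log2 fold change over the square root of F. The test was checked on simulated data. Pair ratios added 0.5 counts to each gene, and log2 CPM for correlations added 0.5 CPM. Members, lists and tests were chosen with earlier results of these data known. The named genes are the 10 members, the 2 smallest p of each group of further genes, and Myh7 and Myh4. Also named are the 3 genes most alike to Atp2a1, Atp2a2 and Sln. Myh2, Tnnc2, Tagln, Myl7, Nppa, Nppb, Myl4, Myh6, Mrln, Fkbp1b and Strit1 were named after their values were seen.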

Additional observations from a re-analysis of the deposited data

How the results depend on the processing

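Under the alternatives run, 0 of the 10 members and 0 of the other calcium handling genes passed the adjusted threshold, and all tested genes past it numbered 0 except with DESeq2, which called 6. Cacna1s, Jph1, Casq1, Pvalb and Atp2a1 kept positive log2 fold changes under each of them, and the Casq1 to Casq2 ratio kept its sign under each of its own. Leaving out 1 library at a time gave -0.44 to 0.19 for Atp2a2, -0.16 to 0.16 for Casq2, -0.11 to 0.28 for Sln and -0.22 to 0.30 for Pln. It gave -0.078 to 0.47 for the log2 ratio of Atp2a1 to Atp2a2 and -0.29 to 0.27 for that of Sln to Pln. With limma-voom Sln was -0.049. With medians in place of means the pump ratio was -0.15 and Sln to Pln 0.54. Alternatives chosen after seeing the data also turned signs. Without the 3 libraries with most liver transcripts, Pln was -0.13 and Sln to Pln 0.17. Without the 3 libraries farthest out, Ryr1 was -0.0079, Casq2 0.25, Atp2a2 0.063, Pln -0.080, Atp2a1 to Atp2a2 -0.0077 and Sln to Pln 0.41. The cause was not tested.

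With Spearman's rho 4 relations passed in place of 8. By the longest transcript Ryr1 stood at 330.1 RPKM. Members at an unadjusted p under 0.05 numbered 0 to 3 without 1 library. All tested genes at that threshold numbered 493 to 1449, against 660 in the full set. The ends of these ranges came from different fits. The 3 members came without DMSO replicate 4, where 706 of 14263 tested genes passed, and the 1449 genes without Myriocin replicate 4, where 1 member did. Without the libraries with liver transcripts there were 3 members and 1022 of 14346 tested genes, and without those farthest out 2 members and 1140 of 14303. Same-numbered libraries of the groups had correlations of -0.13 to 0.09, and no DMSO library correlated best with its own number. No pairing by number was seen in these correlations, which other differences between libraries also enter, so they cannot exclude one. The replicate block over 10 libraries left 0 members and 0 genes past the threshold, with 0.27 for Casq1 and -0.13 for Atp2a2. Pln, at about 1 CPM, and Sln are limited by low counts.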
